A study of Homo sapiens with 6 samples.

Results

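In FAM60A-knockout HEK293 cells, 103 autosomal genes lay at least 3-fold below every control library in every knockout library. They were chosen by their CPM (the usual per-million unit, a gene's count divided by the library total and scaled to a common depth): each had at least 50 counts in all 3 control libraries, and its lowest control CPM was at least 3 times its highest knockout CPM after 0.02 was added to each CPM. They were drawn from 14648 autosomal genes that met the same count minimum, of which they made up 0.703%, and from 62754 genes in the table. Because the difference between knockout and control libraries chose them, that difference is described and not tested. RNA was sequenced from control HEK293 cells (3 libraries, treatment Control) and from HEK293 cells in which CRISPR/Cas9 with several guide RNAs had targeted FAM60A (3 libraries). Knockout cells were kept as a pool after puromycin selection, not as a single clone. HEK293 is a human embryonic kidney line, and the cell line field of every sample reads HEK293T, its derivative with the SV40 large T antigen. No source used here says whether replicate libraries came from separate cultures, so the spread between them may be technical.

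FAM60A, now named SINHCAF, belongs to Sin3/HDAC, a co-regulator complex that is brought to promoters by DNA-binding factors and removes acetyl groups from histones. It is best known for repression, although Sin3 complexes also occupy active promoters. Among the 103 genes the largest family was that of the C2H2 zinc finger genes, many of which encode KRAB repressors that bind DNA through rows of zinc fingers and recruit the co-repressor KAP1. These genes lie in clusters of similar copies, above all on chromosome 19.

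Library totals lay between 88361827 and 93346824 counts. Counts are listed for replicates 1, 2 and 3 in that order, first of the controls and then, after "against", of the knockout. FAM60A had 11028, 10165 and 12792 control counts against 5684, 5793 and 5449. It fell by 0.85 on the log2 scale (standard error 0.11, adjusted p = 0.00863, edgeR), but without any single knockout library the edgeR adjusted p lay between 0.0571 and 0.0736. Control replicate 3 stood apart from its group: its CPM was at most 0.5 times the lower of the other controls in 688 of the 14648 genes (4.7%) and at least 2 times the higher in 1448 (9.89%). Genes that mark other cell types were near 0 for blood, liver and endothelium (PTPRC, HBB, ALB and CDH5, at most 21 counts). COL3A1 had 45, 49 and 368 counts in the controls and 155 to 164 in the knockout libraries. VIM, KRT8, KRT18, LIN28B and NEFL, expressed in HEK293 cells, had 5235 counts or more in each library. NEFM had 168, 192 and 188 control counts against 93, 115 and 81, and PAX2 had 144, 161 and 577 against 164, 166 and 182. Of these 7 HEK293 markers NEFM was called lower by edgeR (-0.77, adjusted p = 0.0493), and the adjusted p of the others lay between 0.0745 and 0.595. VIM had a log2 fold change of -1.04 (67461, 67908 and 28924 counts against 22202, 27081 and 22257), KRT8 of -0.80 and KRT18 of -0.64. Control replicate 3 was near the highest knockout library in VIM, in KRT8 (400.4 against 368.0 CPM) and in KRT18 (79.26 against 78.58 CPM). The part of these markers in the results was not tested. The median gene lay 0.11 lower in the knockout libraries on the log2 CPM scale, and TMM scaling moved it by 0.11 to near 0. On TMM-scaled library sizes, 83 genes met the rule, all of them among the 103.

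The lowest control CPM exceeded the highest knockout CPM by 3.0-fold to 64.75-fold over the 103 genes, with a median of 4.31. This ratio was at least 5 in 39 genes and at least 10 in 13. Mean levels in the controls ran from 0.641 to 393 CPM with a median of 4.53, against a median of 24.7 over all 14648 genes, and mean levels in the knockout libraries ran from 0.0111 to 40.7 CPM with a median of 0.384. In 20 genes every control library held at least 1000 counts, while in 33 the lowest control held 50 to 99. In 15 genes no knockout library held more than 10 counts. Over the 103 genes the median coefficient of variation was 14.1% in the knockout libraries and 23.4% in the controls, control replicate 3 included. Control replicates 1 and 2 alone differed by a median factor of 1.08 and at most 1.62.

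**Figure D1:**
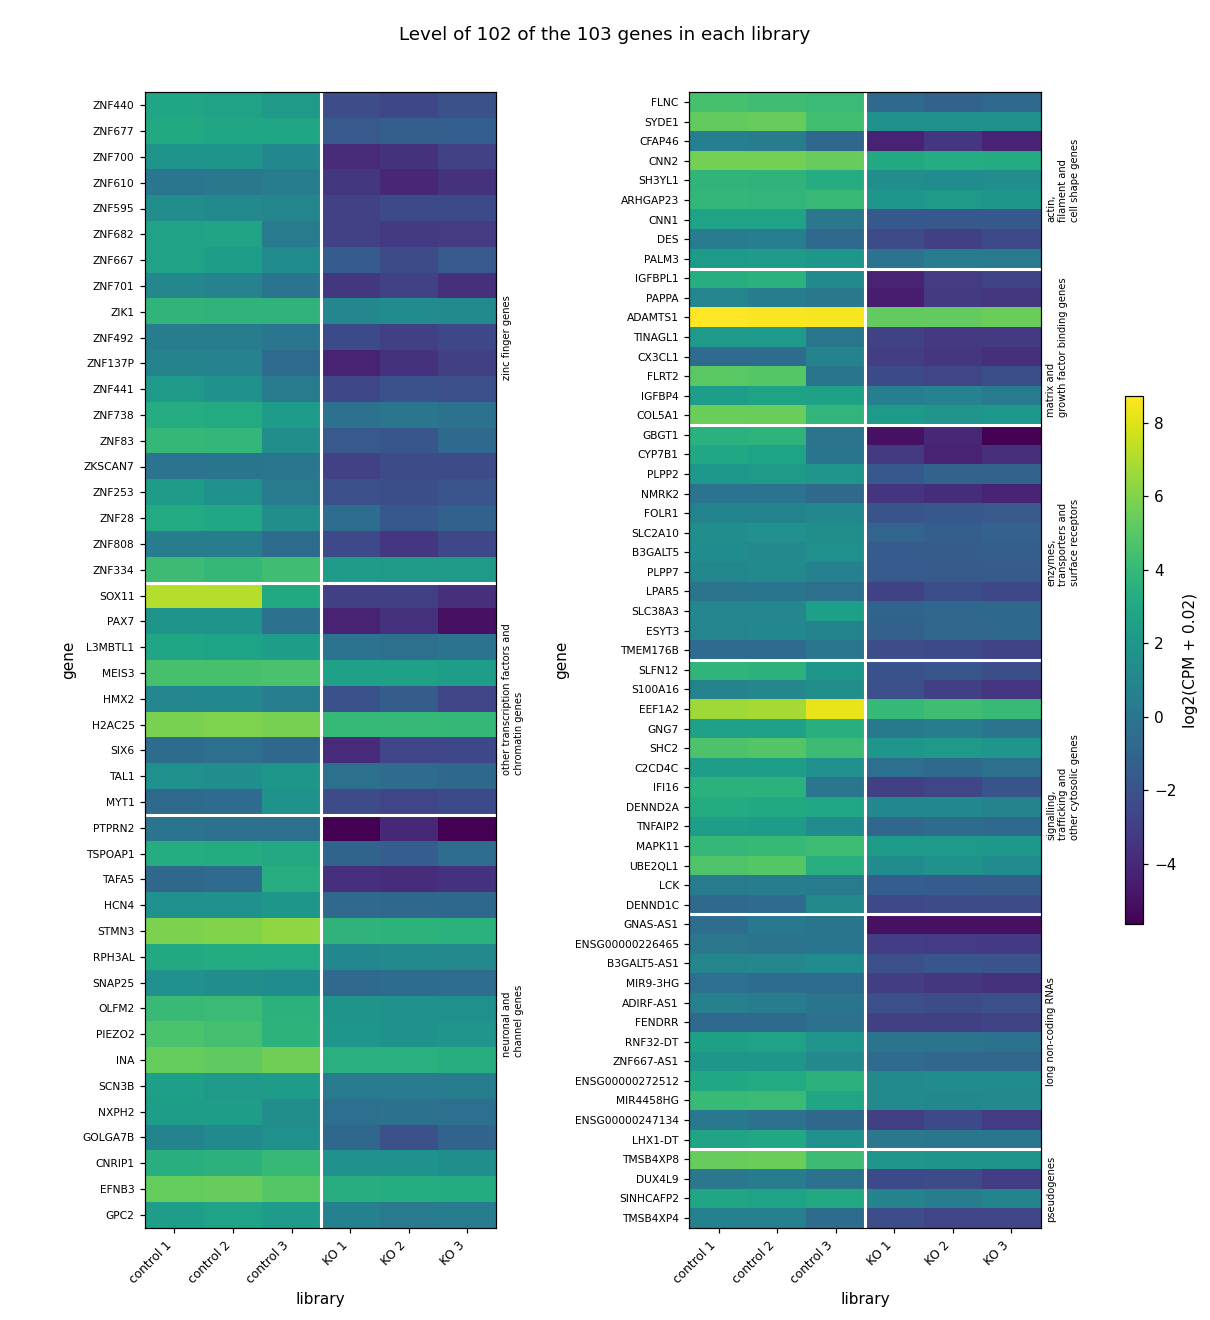
Each row is one of 102 of the 103 genes and each column a library, and the colour gives log2(CPM + 0.02); white lines separate controls from knockout (KO) libraries and the functional classes. All 3 knockout columns are darker than the control columns in every row, and in rows such as SOX11, FLRT2 and IFI16 control 3 lies between the other controls and the knockout libraries.

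At the threshold the genes formed no gap. The 3 just inside were LHX1-DT with a ratio of 3.0 (611, 722 and 289 counts in the controls, 90, 89 and 88 in the knockout libraries), PALM3 with 3.01 (423, 431 and 367 against 76, 118 and 106) and ENSG00000247134 with 3.014 (101, 76 and 50 against 10, 15 and 9). Just outside were LINC01976 with 2.992 (180, 187 and 540 against 36, 58 and 40), ZNF528 with 2.988 (861, 841 and 526 against 140, 123 and 170) and LRRC69 with 2.969 (236, 282 and 126 against 39, 40 and 29). A further 3 genes, TMSB4X, ASB9 and TCEAL7, met every part of the rule except that they lie on chromosome X.

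By annotation 86 of the 103 genes were protein-coding (83.5%, against 84.4% of the 14648 genes), 12 were long non-coding RNAs (11.7% against 8.69%) and 5 were pseudogenes (4.85% against 6.38%). The zinc finger genes numbered 19 (18.4% against 3.17%). The other genes were sorted by their known function into 17 neuronal and channel genes, 13 signalling and trafficking genes, 12 enzymes, transporters and receptors, 9 transcription factors and chromatin genes, 9 actin and filament genes, 8 matrix and growth factor binding genes, 12 long non-coding RNAs and 4 pseudogenes. This sorting was made after the genes were known and supports nothing about their number.

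Of the 19 zinc finger genes, 16 lay on chromosome 19. They were 7.58% of the 211 zinc finger genes of that chromosome in the count range of the rule, whereas 3 of the 253 on other chromosomes (1.19%) and 13 of the 783 other genes on chromosome 19 (1.66%) met the rule. The ratio was largest in ZNF440, with 669, 582 and 405 control counts against 17, 14 and 20 under knockout. ZNF677 had 776, 656 and 666 counts against 27, 36 and 34, ZNF700 had 318, 327 and 192 against 4, 6 and 11, and ZNF610 had 92, 97 and 121 against 7, 4 and 6. In these 4 genes the knockout libraries held a small remainder of the transcript, and no control library came near it. ZNF595, at the tip of chromosome 4, had 256, 218 and 172 control counts against 11, 15 and 15 under knockout. The others off chromosome 19 were ZKSCAN7 on chromosome 3 (81, 87 and 90 against 11, 16 and 16) and ZNF334 on chromosome 20 (1681, 1403 and 1842 against 416, 398 and 412). In 7 zinc finger genes the CPM of control replicate 3 was at most 0.5 times the lower of the other controls: ZNF682, ZNF667, ZNF137P, ZNF441, ZNF83, ZNF253 and ZNF28. Control replicate 3 was far lower in ZNF83 (1434, 1340 and 259 counts in controls 1, 2 and 3, against 27, 24 and 53) but level with the others in ZIK1 (1237, 1221 and 1208 against 176, 218 and 200). Without control replicate 3 the rule took 442 genes, and zinc finger genes were then 10.2% of those taken, against 3.2% of the 15191 genes in range. The 442 had to include all 103, because leaving out a library can only loosen the rule.

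Of the 19, 7 lay within one stretch of chromosome 19 between 52330221 and 53254873 (GRCh38.p14), which held 15 genes in range. In chromosome order these were ZNF610, ZNF808, ZNF701, ZNF137P, ZNF83, ZNF28 and ZNF677. Of these 7, the 4 from ZNF808 to ZNF83 (52527668 to 52690496), followed each other with no other gene in range between them. ZNF808 had 119, 122 and 61 control counts against 14, 7 and 14 under knockout. ZNF701 had 183, 150 and 83 against 7, 11 and 5, and the pseudogene ZNF137P had 160, 153 and 58 against 3, 6 and 10. ZNF137P overlaps the end of ZNF701 on the same strand, so the split of reads between them is uncertain. The 8 genes between them were also tested by edgeR. ZNF528 (log2 fold change -2.21, adjusted p = 0.00666), ZNF888 (-1.99, adjusted p = 0.0159), ZNF468 (-1.75, adjusted p = 0.0452) and ZNF880 (-1.20, adjusted p = 0.0123) fell by edgeR's test. ZNF611 (-1.02, adjusted p = 0.0508), ZNF816 (-1.07, adjusted p = 0.0635), ZNF160 (-0.32, adjusted p = 0.286) and NDUFV2P1 (-0.37, adjusted p = 0.166) did not pass that edgeR test. ZNF160, with 1833, 1573 and 1132 counts against 1032, 1032 and 1189, overlapped between the groups, so the stretch did not move as a block.

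A further stretch on the short arm of chromosome 19 (11538851 to 11950763), drawn in the same way, held 4 of the genes among 8 in range. These were CNN1, ZNF441, ZNF440 and ZNF700, the last 3 with no other gene in range between them. ZNF441 had 405, 306 and 109 control counts against 13, 21 and 19 under knockout. Between CNN1 and ZNF441, ELOF1 (log2 fold change -0.77, adjusted p = 0.0176), ZNF627 (-0.83, adjusted p = 0.0161) and ZNF823 (-1.03, adjusted p = 0.0224) fell in the edgeR test, while HNRNPA1P10 was 0.30 higher with an adjusted p of 0.3. The bases just before the start of ZNF441, ZNF440 and ZNF700 are shown because the knockout libraries of these 3 genes lay far below the controls together. Each is the 150 bases before the start site in RefSeq (GRCh38.p14, plus strand), with CG dinucleotides, the sites of DNA methylation, in capitals.
ZNF441, chr19:11766850-11766999, plus strand: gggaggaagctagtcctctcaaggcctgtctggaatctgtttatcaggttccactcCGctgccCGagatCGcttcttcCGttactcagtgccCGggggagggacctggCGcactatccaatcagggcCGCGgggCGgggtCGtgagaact
ZNF440, chr19:11814123-11814272, plus strand: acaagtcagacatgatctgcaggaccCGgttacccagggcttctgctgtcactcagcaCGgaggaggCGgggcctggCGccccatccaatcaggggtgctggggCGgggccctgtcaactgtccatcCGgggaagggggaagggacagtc
ZNF700, chr19:11924957-11925106, plus strand: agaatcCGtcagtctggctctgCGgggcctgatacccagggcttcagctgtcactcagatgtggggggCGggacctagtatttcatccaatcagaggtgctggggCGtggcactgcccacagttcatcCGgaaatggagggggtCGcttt
All 3 held the same run of 10 bases around a CCAAT box, which began 34, 65 and 64 bases before the start of ZNF441, ZNF440 and ZNF700. ZNF440 and ZNF700 also shared a run of 13 bases further from the start. Each had a GC box (GGGCGG) on the strand of the gene.

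**Figure D2:**
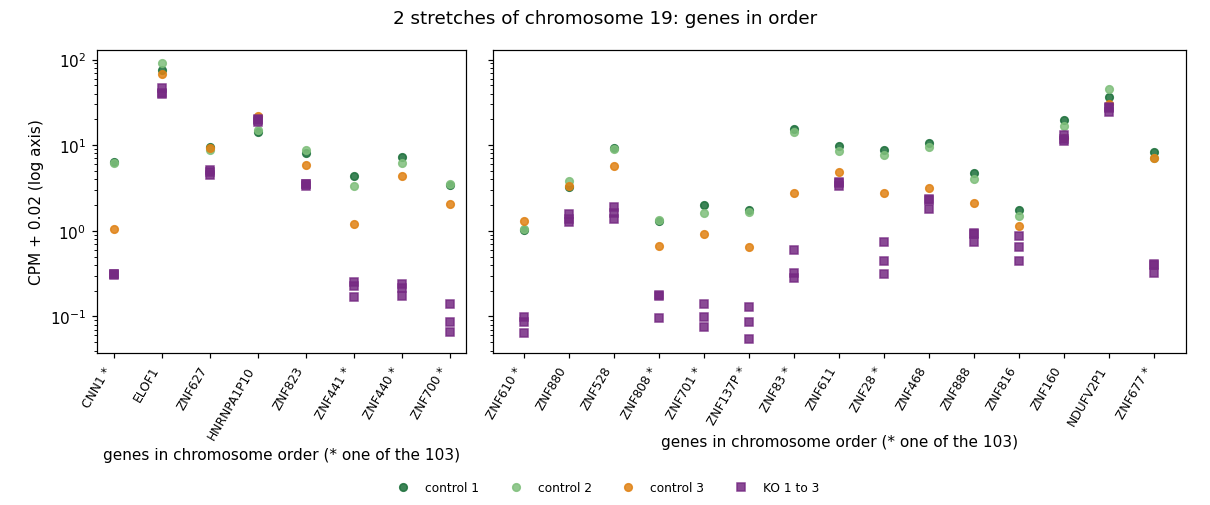
Genes are in chromosome order within each stretch, and the vertical log axis gives CPM + 0.02 for each library. The genes marked with an asterisk, such as ZNF440 and ZNF677, have all knockout (KO) squares far below the control circles, while in ZNF160 and HNRNPA1P10 squares and circles meet.

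Other pairs of the 103 genes also had no other gene in range between them. These were ZNF253 with ZNF682, ZNF667 with ZNF667-AS1 and C2CD4C with SHC2, all on chromosome 19, and B3GALT5-AS1 with B3GALT5 on chromosome 21. ZNF253 had 454, 294 and 107 control counts against 18, 18 and 23 under knockout, and ZNF682 had 570, 623 and 111 against 11, 8 and 9. In both, control replicate 3 was the lowest control and still several times above every knockout library. ZNF667 had 576, 475 and 230 counts against 30, 16 and 27. Its divergent antisense partner ZNF667-AS1 had 359, 356 and 204 against 56, 48 and 47. In all, 9 of 13830 pairs of neighbouring genes in range were both among the 103, and 30 of the 100 genes with a RefSeq position lay within 1 Mb of another. Neither count was compared with what gene density alone would give. Chromosome 19 carried 29 of the 103 genes (28.2%, against 6.79% of the genes in range), chromosome 20 carried 9 (8.74% against 2.74%), and chromosomes 6 and 13 carried none of their 823 and 281. Without control replicate 3 the share on chromosome 19 was 16.3% of 442 genes, against 6.85% of the genes in range.

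**Figure D3:**
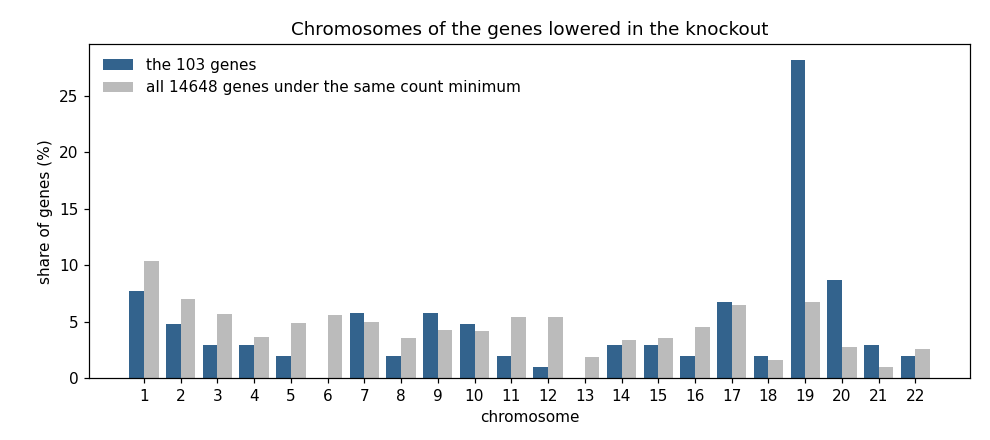
Bars give, for each autosome, the share of the 103 genes and the share of the 14648 genes in the same count range, in percent. Chromosome 19 holds 28.2% of the former and 6.79% of the latter.

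Among the transcription factors, SOX11 had the largest ratio of all 103 genes. It encodes an HMG-box factor of neuronal progenitors, and had 13065, 12803 and 803 control counts against 10, 10 and 5 under knockout. Even its lowest control library, replicate 3, held many times the count of any knockout library. Of the other genes of SOX group C, SOX4 fell by 0.62 on the log2 scale (standard error 0.14, adjusted p = 0.0303, edgeR), and SOX12 did not pass the test (-0.14, adjusted p = 0.733, edgeR). PAX7, the paired-box factor of muscle stem cells, had 319, 315 and 77 counts against 3, 6 and 1. L3MBTL1, which binds methylated histone lysines and compacts chromatin, had 646, 603 and 499 counts against 78, 71 and 78. In MEIS3, a homeobox cofactor, the controls lay close together (2201, 2165 and 2290 counts), and so did the knockout libraries (526, 552 and 465). HMX2, a homeobox gene of the inner ear and hypothalamus, had 182, 195 and 129 counts against 20, 32 and 13. Its neighbour HMX3, on the same chromosome 10 locus, fell by 2.15 on the log2 scale (standard error 0.29, adjusted p = 0.00921, edgeR). The histone gene H2AC25 had 5197, 5844 and 5029 counts against 1369, 1442 and 1378, and its neighbour H2BC26 fell by 1.57 (adjusted p = 0.0334, edgeR). SIX6, TAL1 and MYT1 completed the class, and in MYT1 control replicate 3 was 5.40 times the mean of the others.

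The actin and filament genes were led by FLNC, which encodes the muscle filamin that crosslinks actin. It had 2123, 1825 and 1644 control counts against 54, 41 and 53 under knockout, that is 20.03 ± 2.668 against 0.548 ± 0.0867 CPM (SD, n = 3 each). SYDE1, a GTPase-activating protein, had 3578, 3831 and 1904 counts against 270, 300 and 278, and the ciliary gene CFAP46 had 133, 121 and 53 against 3, 7 and 3. Both calponins of the set, proteins that bind actin filaments, were far lower, CNN2 with 4975, 4941 and 3852 counts against 751, 872 and 820, and CNN1 with 590, 577 and 96 against 26, 27 and 26. SH3YL1, a phosphoinositide-binding protein of membrane ruffles, had 1231, 1187 and 879 counts against 237, 229 and 234. DES, the muscle filament desmin, PALM3 and ARHGAP23 made up the rest. Of 20 other tested genes of actin and muscle filaments, 5 fell and none rose by edgeR: FLNA (log2 fold change -2.18), ACTG2, TPM4, TPM2 and SMTN. Of all tested genes outside the 103, 8.22% were lower and 8.0% higher, the background for this count and for the family counts that follow. The lower calls of every family list were lost when knockout replicate 1 or 3 was left out. FLNA had 216099, 199332 and 72328 counts against 29819, 31420 and 35726.

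The matrix and growth factor class held 3 genes of the insulin-like growth factor (IGF) binding system. IGFBPL1 had 912, 1085 and 214 control counts against 3, 9 and 12 under knockout. PAPPA encodes the pappalysin protease that cleaves IGFBP4 and so frees IGF, and had 180, 124 and 98 counts against 2, 8 and 7. Its substrate IGFBP4 had 493, 601 and 562 counts against 122, 148 and 109. Of 11 other tested genes of this system 1 fell and 1 rose, near the background of 8.22% and 8.0%: IGFBP7 fell by 3.03 (adjusted p = 0.0383, edgeR) and STC1, an inhibitor of pappalysins, rose by 1.74 (adjusted p = 0.00697, edgeR). ADAMTS1, a secreted protease of proteoglycans, had the most counts of the 103 genes, 39229, 36434 and 34152 control counts against 3380, 3570 and 4071 under knockout. Its level was 393 ± 28.6 CPM in the controls and 40.7 ± 3.59 CPM in the knockout libraries (SD, n = 3 each). In ADAMTS1 the groups were far apart against a small spread, in contrast to FLRT2, an adhesion receptor with 3126, 2812 and 88 counts against 15, 13 and 18. TINAGL1, a basement membrane glycoprotein, had 387, 396 and 92 counts against 11, 8 and 8. CX3CL1, the membrane-bound chemokine fractalkine, had 58, 61 and 161 counts against 9, 7 and 5. COL5A1, the alpha 1 chain of fibrillar collagen V, met the rule narrowly with 4249, 4038 and 1290 counts against 397, 328 and 360. Of 8 other tested fibrillar collagen genes 2 fell and 1 rose. The collagen V chain gene COL5A3 fell by 1.85 (adjusted p = 0.0143, edgeR) and COL1A1 by 0.66 (adjusted p = 0.0361, edgeR), while COL5A2, whose chain assembles with that of COL5A1, rose by 2.63 (adjusted p = 0.0361, edgeR).

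A pair of galactosyl- or N-acetylgalactosaminyltransferases of glycolipids stood among the enzymes. GBGT1 had 1052, 1197 and 84 control counts against 1, 4 and 0 under knockout. B3GALT5 had 237, 197 and 271 counts against 30, 32 and 35, and its antisense neighbour B3GALT5-AS1 had 169, 189 and 239 against 18, 24 and 21. Of 24 other tested genes of this family, 4 rose and 1 fell by edgeR, against 8.0% and 8.22% of all genes outside the 103. The 4 included FUT9, a fucosyltransferase with 1, 2 and 0 control counts against 379, 310 and 454 under knockout. CYP7B1, the oxysterol hydroxylase of an alternative bile acid pathway, had 687, 594 and 89 counts against 8, 3 and 5. PLPP2, a phospholipid phosphatase of the plasma membrane, had 367, 422 and 340 against 26, 41 and 41. NMRK2, a kinase that makes a NAD precursor, had 80, 82 and 57 against 6, 5 and 3. FOLR1, the high-affinity folate receptor, had 166, 167 and 194 counts against 22, 27 and 27. SLC2A10, the transporter GLUT10, had 253, 285 and 258 against 43, 34 and 39, with controls close together. Of the 4 other class III glucose transporters tested, SLC2A12 rose by 0.67 (adjusted p = 0.0261, edgeR) and SLC2A13 by 1.20 (adjusted p = 0.0124, edgeR). PLPP7, LPAR5, SLC38A3, ESYT3 and TMEM176B had ratios below those of the genes named here.

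Among signalling and trafficking genes, SLFN12, a schlafen family ribonuclease, had 1230, 1099 and 365 control counts against 20, 24 and 18 under knockout. SLFN13, next to it on chromosome 17, fell by 0.86 (adjusted p = 0.023, edgeR). SLFN11, on its other side, did not pass the test (-0.134, adjusted p = 0.5025, edgeR). S100A16, a calcium-binding protein, had 158, 186 and 252 counts against 18, 10 and 7. EEF1A2, the translation elongation factor of neurons and muscle, had 9632, 10276 and 27943 counts against 1412, 1787 and 1505, so that here control replicate 3 was the highest. Its ubiquitous counterpart EEF1A1 had a log2 fold change of -0.09 (adjusted p = 0.573, edgeR). Of the 3 tested eEF1 subunit genes outside the 103, which include EEF1A1, EEF1D rose by 0.52 (adjusted p = 0.0444, edgeR) and none fell. GNG7, a G protein gamma subunit, had 545, 554 and 985 counts against 96, 117 and 81. The adaptor SHC2 had 2428, 2707 and 1723 counts against 332, 377 and 337, and C2CD4C beside it had 488, 499 and 291 against 65, 53 and 71. IFI16, a sensor of foreign DNA, had 1092, 1096 and 93 counts against 10, 13 and 22. DENND2A, TNFAIP2, MAPK11, UBE2QL1, LCK and DENND1C had ratios between 3.08 and 3.67.

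The 17 neuronal and channel genes spanned vesicle release, ion channels and axon guidance. PTPRN2, a phosphatase-like protein of dense-core vesicles, had 84, 77 and 73 control counts against 0, 4 and 0 under knockout. TSPOAP1, which tethers calcium channels at synapses, had 876, 841 and 746 counts against 42, 34 and 63. In both genes the 3 controls were close together and far from the knockout libraries. The secreted protein gene TAFA5 differed, with 51, 59 and 940 counts against 5, 5 and 6. HCN4, the pacemaker channel, had 281, 313 and 358 counts against 53, 52 and 48, and STMN3, a regulator of microtubules, had 5449, 5891 and 7608 against 1159, 1122 and 1033. INA, the filament alpha-internexin, had 3741, 3495 and 4504 counts against 964, 1018 and 883. EFNB3, an ephrin ligand, had 3786, 3823 and 2864 counts against 872, 875 and 838. In no gene of this class was control replicate 3 at or below 0.5 times the lower of the others, and NXPH2, which encodes a neurexin ligand, came nearest with 487, 485 and 255 counts against 66, 75 and 68. PIEZO2, a mechanosensitive channel gene, had 2329, 2076 and 1182 counts against 325, 302 and 330. RPH3AL, SNAP25, OLFM2, SCN3B, GOLGA7B, CNRIP1 and GPC2 also belonged here. Of 17 other tested genes of dense-core vesicles and sorting receptors, 5 fell by edgeR (SORCS1, SYT4, PCSK2, PTPRN and CHGB) and 1 rose, against 8.22% and 8.0% of all genes outside the 103. The 1 was the synaptic calcium sensor SYT1, with 19, 16 and 25 counts against 1490, 1473 and 1520. PTPRN, the paralog of PTPRN2, fell by 1.85 on the log2 scale (82, 72 and 36 counts against 15, 17 and 15, edgeR adjusted p = 0.0219).

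Of the 12 long non-coding RNAs, GNAS-AS1, the antisense transcript of the imprinted GNAS locus, had 64, 104 and 89 counts in the controls and 1 count in each knockout library. GNAS itself, which encodes the stimulatory G protein alpha subunit, fell by 0.96 (standard error 0.14, adjusted p = 0.0103, edgeR). The identifier ENSG00000226465 on chromosome 20 had 95, 84 and 88 counts against 9, 9 and 8. MIR9-3HG, the host transcript of the neuronal miR-9, had 68, 61 and 61 counts against 9, 7 and 6, and ADIRF-AS1 had 138, 122 and 85 against 18, 16 and 19. FENDRR, divergent to the mesoderm factor FOXF1, had 54, 57 and 74 counts against 10, 10 and 12, and FOXF1 fell by 2.01 (adjusted p = 0.0145, edgeR). LHX1, a homeobox gene of kidney and head development beside LHX1-DT, fell by 1.92 (adjusted p = 0.0353, edgeR). RNF32-DT, ENSG00000272512, MIR4458HG and ENSG00000247134 were the remaining ones.

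Some of the 103 genes share sequence with other genes, so their counts are less certain. Sharing was counted over stretches of 31 bases and with all other genes together. On the same strand, 15 genes shared at least 20% of their transcript sequence and 73 shared under 5%. The highest shares were in pseudogenes. DUX4L9, a copy of the DUX4 repeat of chromosome 4, shared 82.2%, mostly with DUX4L6, and had 96, 121 and 77 counts against 15, 16 and 9. TMSB4XP8 shared 70.5% and TMSB4XP4 shared 34.4%, both with TMSB4X. TMSB4X, which encodes the actin-sequestering thymosin beta 4, had 30304, 31631 and 13389 control counts against 2581, 2384 and 2307 under knockout. TMSB4XP8 had 3905, 4283 and 1737 counts against 315, 309 and 314, and TMSB4XP4 had 143, 139 and 61 against 17, 13 and 13. In all 3, control replicate 3 lay between the other controls and the knockout libraries. Reads from the sequence that TMSB4X shares with these copies cannot be told apart here. SINHCAFP2, a pseudogene of the targeted gene, shared 60.7%, mostly with SINHCAF, and had 682, 605 and 776 counts against 152, 123 and 161. Among zinc finger genes ZNF595 shared 44.8%, ZNF492 44.2% and ZNF700 34.3%, whereas the other zinc finger genes with at least 20% lay between 22.7% and 31.4%. The largest partner was ZNF611 for ZNF808 (13.5%), ZNF468 for ZNF28 (11.5%), ZNF816 for ZNF137P (9.63%) and ZNF888 for ZNF701 (7.93%). These partners lie in the same stretch, so their counts are not fully separate. For ZNF610, ZNF83 and ZNF677 the largest partner held at most 3.4%. On the opposite strand 4 genes shared at least 20%. These were TMSB4XP8 with 58.1%, shared with BCAS4, GNAS-AS1 with 32.2%, mostly with GNAS, PAPPA with 20.9% and CNN2 with 20.4%. Whether counting used the strand is not stated in the sources used here.

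Control replicate 3 was the lowest control in 68 of the 103 genes and the highest in 27. It was at most 0.5 times the lower of the other controls in 26 genes (25.2%, against 4.7% of all genes in range) and at least 2 times the higher in 6 (5.83% against 9.89%). The rule itself capped how low control replicate 3 could be and used its value, so these shares are a description. The median ratio of control replicate 3 to the mean of the others was 0.774 over the 103 genes and 0.974 over the genes in range. By class it was 0.504 in zinc finger genes and 0.476 in matrix genes, but 0.903 in neuronal and channel genes. In 3 genes (FLRT2, IFI16 and CNN1) control replicate 3 was nearer to the knockout mean than to the other controls on the log2 scale. The 6 genes in which it was far higher were TAFA5, MYT1, DENND1C, EEF1A2, SLC38A3 and CX3CL1, of which TAFA5 reached 17.0 times the mean of the others. What made this library differ was not tested.

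**Figure D4:**
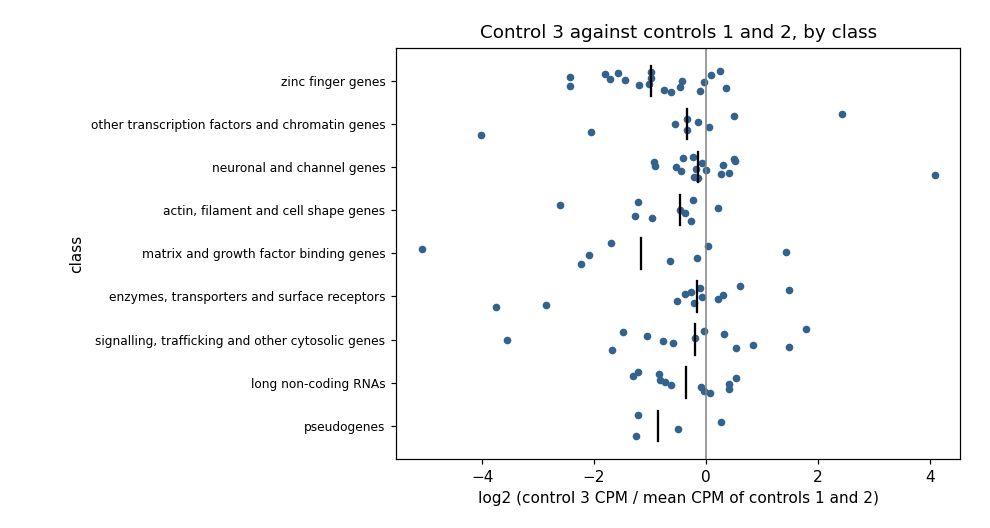
Each point is one of the 103 genes, placed on the horizontal axis by log2 of control 3 CPM over the mean CPM of controls 1 and 2, with black lines at the class medians. Points of the zinc finger and matrix classes lie mostly left of 0, those of the neuronal and channel class around it, and TAFA5 is the point furthest to the right.

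Genes related to the 103 but outside them were tested by edgeR across all 20992 genes that passed its filter, of which 1820 were lower (8.67%) and 1671 higher (7.96%) in the knockout libraries at an adjusted p of at most 0.05. Leaving out the 103 genes, 1717 of 20889 were lower (8.22%) and 1671 higher (8.0%). Of 499 other zinc finger genes, 61 were lower (12.2%) and 21 higher (4.21%), with a median log2 fold change of -0.15 against -0.0046 over all genes outside the 103. The lower ones were 30 of 218 on chromosome 19 and 31 of 281 elsewhere. Over all 16 family lists, drawn around the 103 genes, 22 of 137 other genes were lower (16.1%) and 11 higher (8.03%). These genes share the libraries in which the 103 were chosen, and the counts are given beside the background without a test of the lists.

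The tested genes next to the 103 showed the widest gap between directions among these sets. Of 181 such neighbours 39 were lower (21.5%) and 5 higher (2.76%), and their median log2 fold change was -0.38. Neighbours within 20 kb were lower in 25 of 79 cases, and those further away in 14 of 102, a split chosen after the calls were known. Some pairs were divergent or overlapping transcripts, such as LHX1 with LHX1-DT, FOXF1 with FENDRR and GNAS with GNAS-AS1. Others were related genes of one locus, such as HMX3 beside HMX2, SLFN13 beside SLFN12, and ZNF93 (log2 fold change -3.45, adjusted p = 0.0329, edgeR). ZNF93 lies between ZNF253 and ZNF682. It missed the count minimum, with 46 counts in control replicate 3, and also the 3-fold part of the rule, with a ratio of 1.74. Unrelated neighbours were also among them. BHLHE22, a neuronal transcription factor beside CYP7B1, had 345, 335 and 25 control counts against 2, 1 and 1 under knockout. IGSF5, a junction protein beside B3GALT5, had 128, 165 and 47 counts against 0, 5 and 3. The 5 higher neighbours were ZNF583, HSP90AA3P, EEF1DP1, ATP10A and MIR3667HG, with log2 fold changes between 0.66 and 2.39. Without control replicate 3 far more genes were called, 32.4% of the other genes lower and 33.2% higher, and the neighbours were then 56.4% lower and 17.7% higher, the zinc finger genes 47.1% and 25.5%. Without knockout replicate 1 or 3 edgeR called 0 neighbours lower, with 48 and 49 lower at an unadjusted p under 0.05. It then called 0 and 1 zinc finger genes lower, with 79 at an unadjusted p under 0.05 without knockout replicate 1, and 0 family genes lower in both fits, with 26 and 30 at an unadjusted p under 0.05.

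**Figure D5:**
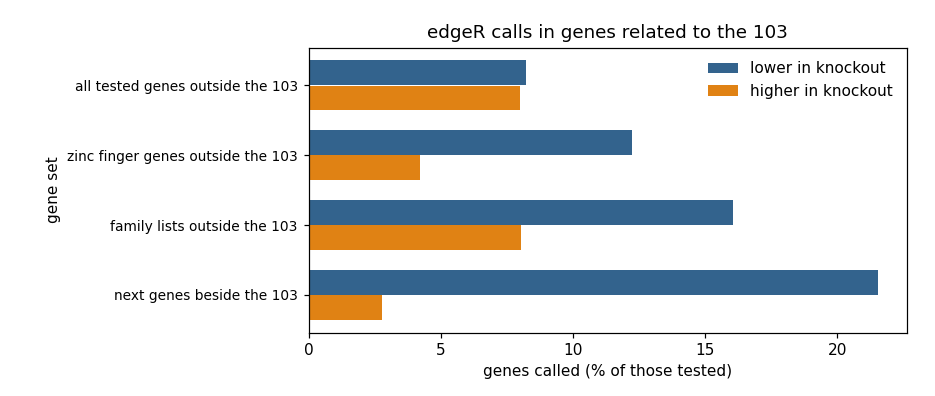
Bars give the share of tested genes called lower and higher in the knockout libraries by edgeR (adjusted p of at most 0.05), for all genes outside the 103 and for sets related to them. The neighbours reach 21.5% lower against 2.76% higher, whereas all other genes have 8.22% lower and 8.0% higher.

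RefSeq promoters, windows of 300 bases around the start site, were matched for 73 of the 103 genes. Their median GC content was 67.0% against 65.7% in 10607 other genes in range, and they held a median of 28 CG dinucleotides against 27. Fewer than 5 were found in 3 of the 73 (4.11%, against 4.71%). In the 14 zinc finger promoters the median was 21, against 23 in 378 other zinc finger genes. The wide range within the 103 is shown by the 150 bases before the starts of FLNC and S100A16, again with CG in capitals.
FLNC, chr7:128830256-128830405, plus strand: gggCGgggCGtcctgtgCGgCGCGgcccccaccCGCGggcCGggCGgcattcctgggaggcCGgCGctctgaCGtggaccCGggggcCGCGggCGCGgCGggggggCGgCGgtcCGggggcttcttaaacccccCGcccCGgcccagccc
S100A16, chr1:153613138-153613287, minus strand: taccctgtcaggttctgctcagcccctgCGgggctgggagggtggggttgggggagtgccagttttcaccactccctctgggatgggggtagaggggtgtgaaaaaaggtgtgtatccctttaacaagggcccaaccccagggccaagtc
FLNC held 23 CG dinucleotides in these bases and S100A16 held 1. Motifs were searched as exact letters on both strands of the whole windows. The GC box GGGCGG was in 80.8% of the promoters against 71.3% of the others, CCAAT in 34.2% against 36.5%, and TATAAA in 4.11% against 5.41%. GGAATG, the core bound by TEAD factors, was in 12 of 73 (16.4% against 10.4%), among them FLNC, ZNF440 and S100A16. Of the REST motif, the left part TTCAGCACC was in 1 of the 73, SIX6 (1.37% against 0.273%). Its right part GGACAGC was in 5 (6.85% against 6.67%). The E2F core TTTCGCGC and the palindromic NRF1 motif were found in none of the 73, and in 0.999% and 2.38% of the others.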

How the data were processed

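RNA-seq counts per gene were analysed for HEK293 cells, with 3 libraries of control and 3 of knockout cells. The authors deposited whole-number counts without normalization. The methods describe poly(A)-selected, dUTP strand-specific libraries, Trimmomatic and Salmon on hg38, the submitters' processing notes list STAR 2.7.10b, featureCounts 2.0.0 and hg38, and the extraction label names hg19. The annotation release and the strand setting of the counting are not given in the sources used here.

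The members and lists were chosen with earlier results of these data known. CPM was each count divided by its column total (88361827 to 93346824) and scaled to a common depth. Symbols and exons came from GENCODE, and positions and promoters from RefSeq on GRCh38.p14, matched by symbol for 100 of the 103 genes. Values in every library are given for the 12 genes with the largest ratio, the 10 with the highest mean control CPM, up to 5 per class, genes in runs and genes at the threshold. Genes outside the 103 are named where they are FAM60A, cell type markers, in a family list, or beside or between the 103; PECAM1 of the marker list was not analysed here. Others, such as the genes picked for their pattern in control replicate 3, were named after their values were seen. The values of 1 of the 103 genes are not reported here.

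Tests used edgeR 4.0.16 in R 4.3.3: TMM, filterByExpr with a minimum count of 10, the two-sided quasi-likelihood F-test, and Benjamini-Hochberg adjustment over 20992 genes. Alternatives were DESeq2 1.42.0, quantile-normalized limma-voom (limma 3.58.1), scaling by library size alone, other filters, the replicate number as a block, and each library left out. Sequence sharing was counted over stretches of 31 bases of GENCODE transcripts. Python 3.11.15 with numpy 2.4.6, pandas 2.3.3 and matplotlib 3.10.9 was used.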

Additional observations from a re-analysis of the deposited data

How the results depend on the processing

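The number of genes that met the rule was 83 with TMM-scaled library sizes and 151 with a minimum of 10 counts, but 40 with 0.5 added to each CPM, 55 with a minimum of 200 counts, 242 at 2-fold and 39 at 5-fold. Leaving out one library gave 107 to 442 genes, 442 without control replicate 3, where the share of zinc finger genes was 10.2% and that of chromosome 19 was 16.3%.

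Counts of calls depended on the libraries and the tool. Leaving out one library gave 56 to 7202 lower and 111 to 7019 higher genes. It gave 0 to 235 lower and 1 to 127 higher zinc finger genes, 0 to 102 lower and 0 to 32 higher neighbours, and 0 to 63 lower and 2 to 43 higher family genes. The highest counts came without control replicate 3, and the lowest lower counts without knockout replicate 1 (for neighbours and families also without knockout replicate 3). At an unadjusted p under 0.05 in edgeR the fit without knockout replicate 1 held 79 lower zinc finger genes, 48 lower and 9 higher neighbours and 26 lower family genes. Without knockout replicate 3 it held 49 lower and 11 higher neighbours and 30 lower family genes, and without knockout replicate 2 it held 8 higher neighbours. DESeq2 called 3115 genes lower, 109 zinc finger genes lower and 51 higher, 63 neighbours lower and 10 higher, and 34 family genes lower. Zinc finger genes called higher were 36 with limma-voom, 13 with library size alone and 12 without a filter, where higher neighbours were 3.

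Deviations of libraries with the same replicate number correlated at 0.010, 0.031 and -0.036, so no pairing by number was seen. With 3 libraries per group and control replicate 3 apart from its group, this check cannot exclude pairing. With the replicate block edgeR called 185 genes lower and 222 higher, 1 zinc finger gene lower and 2 higher, 3 neighbours lower and 0 higher (12 at an unadjusted p under 0.05), and 2 family genes lower and 3 higher. FAM60A then had a log2 fold change of -0.844 with an adjusted p of 0.0551. Without a single library its value lay between -0.92 and -0.784, and it lost its call without any one knockout library.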
